A study of Mus musculus with 36 samples.

Results

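A set of 10 genes of the myeloid cell surface were followed through 36 bulk RNA-seq libraries of mouse optic nerve and retina. They were the Fc gamma receptor genes Fcgr1, Fcgr2b, Fcgr3 and Fcgr4, the Fc receptor common gamma chain gene Fcer1g, the inhibitory receptor gene Lilrb4a, and the genes of the leukocyte surface proteins CD52, CD53, LY86 and MS4A6C. They are 10 of the 55487 genes in the count table and were taken by symbol. Several were chosen by their measured expression in these libraries, being higher across tissues after optic nerve (ON) crush or early after glaucoma induction. The contrasts of crush 3D, crush 2W and glaucoma 3D with naïve tissue chose members, so their values are a description. Numbers of members called are given for them beside the share of all genes, with no p-value for a member, and nothing is read from these numbers.

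The study compared unmyelinated ON (UON), myelinated ON (MON) and retina of C57BL/6 mice aged 2 to 4 months. Control mice were naïve on both sides, and the other mice had received either an ON crush, sampled after 3 days (3D) or 2 weeks (2W), or a microbead injection into the anterior chamber, which raises eye pressure as a glaucoma model, sampled after 3D, 2W or 6 weeks (6W). RNA of 2 female mice was pooled into 1 library and RNA of 2 male mice into another, giving n = 2 pools for each of the 6 conditions in each tissue. Each of the 24 mice gave all 3 tissues, and a pool cannot be told apart from its sex. Crush and microbead injection were each done on 1 side only. Where p-values are given, they measure the spread between these pools.

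Fc receptors bind the constant part of antibodies and pass the signal into the cell. The activating receptors FcγRI, FcγRIII and FcγRIV, encoded by Fcgr1, Fcgr3 and Fcgr4, sit at the membrane together with the common gamma chain, whose ITAM motif recruits the kinase SYK. FcγRIIb, encoded by Fcgr2b, carries an ITIM motif and recruits the phosphatase SHIP1, which dampens the same response. In the nervous system these genes are expressed mainly by microglia and macrophages, and several of them are higher in reactive microglia than in resting ones.

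Fcgr2b, Fcgr4, Fcgr3 and Fcer1g lie together on chromosome 1 (GRCm38 throughout). Fcgr2b is at chr1:170958617-170976547 on the minus strand, Fcgr4 at chr1:171018920-171029761 on the plus strand, Fcgr3 at chr1:171051174-171064935 on the minus strand and Fcer1g at chr1:171229572-171234365 on the minus strand. The gaps between neighbours were 42.4, 21.4 and 165 kb. The other members are spread over the genome, with Fcgr1 at chr3:96282909-96293969, Cd53 at chr3:106759921-106790149, Cd52 at chr4:134082448-134095082, Lilrb4a at chr10:51490956-51496611, Ly86 at chr13:37345208-37419036 and Ms4a6c at chr19:11469366-11482192.

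Promoter windows of 300 bases, taken from RefSeq on GRCm38.p6, were found for 8 of the 10 genes, the exceptions being Lilrb4a and Cd52. PU.1, the factor encoded by Spi1, is known to drive myeloid genes and binds sites with the core GAGGAA. That core was searched on both strands and was present in 4 of 8 members, compared with 28.3% of 32851 promoters of the same length. The stretches around it are shown because these 4 genes share it, with the core or its reverse complement TTCCTC in capitals, each written 5′ to 3′ on the strand of its gene.
Fcgr1, chr3:96294009-96294044, minus strand: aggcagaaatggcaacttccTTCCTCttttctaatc
Fcgr3, chr1:171059395-171059429, minus strand: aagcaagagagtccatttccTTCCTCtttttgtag
Fcgr4, chr1:171018884-171018919, plus strand: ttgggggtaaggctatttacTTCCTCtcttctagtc
Cd53, chr3:106790173-106790208, minus strand: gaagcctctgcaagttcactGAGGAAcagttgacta
In Fcgr1, Fcgr3 and Fcgr4 the core was read on the opposite strand, within a run rich in C and T, and in Cd53 on the strand of the gene. The pattern TTCNNNGAA of STAT factors occurred in 1 of 8 members, Fcgr1, beside 8.3% of all promoters. The AP-1 pattern TGANTCA occurred in 0 of 8, beside 7.81%. A match is only a match of letters, and binding was not measured.

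Library totals ran from 16.2 to 78.1 M estimated counts. Among naïve libraries the MON pools lay apart in depth, with 78.1 M in the female and 17.8 M in the male pool. The tissue labels went with their markers, since 6 photoreceptor genes together reached 20730 to 27336 FPKM in retina and at most 112 in any nerve library. A list of 6 myelin genes together reached 19933 to 57384 FPKM in MON and 1180 to 17701 in UON. FPKM are fragments scaled by transcript length and library size, so levels can be compared between genes. In bulk tissue, more cells of a type and more RNA in each cell cannot be told apart.

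In naïve tissue the 10 genes were readily detected in both parts of the nerve and low in retina. Fcer1g was the highest member in each tissue, with 56.2 and 53.2 FPKM in the female and male pools of UON, 75.6 and 113 in MON, and 3.25 and 4.42 in retina. In UON it was followed by Cd52 (26.0 ± 4.49 FPKM, mean ± SD), Ly86 (25.4 ± 0.498) and Fcgr2b (21.5 ± 3.21), of which Cd52 and Ly86 overlapped. In MON it was followed by Ly86 (55.6 ± 26.7), Cd52 (42.6 ± 23.4), Fcgr3 (37.3 ± 2.92) and Fcgr2b (31.0 ± 0.172), with overlap among the first 3 of these. At the low end stood Fcgr4, with 0.399 and 1.24 FPKM in UON and 0.832 and 1.40 in MON. Lilrb4a, which encodes an inhibitory receptor of myeloid cells, had the lowest mean in MON with 1.04 and 1.05 FPKM, within the range of Fcgr4. In UON it reached 3.41 and 3.65 FPKM.

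The naïve retina held far fewer of these transcripts. Fcgr2b stood at 0.180 and 0.276 FPKM there and Cd53, a tetraspanin of leukocytes, at 0.184 and 0.255. Lilrb4a had 0 and 5 estimated counts in the naïve retina pools, and a count of 0 in the female library still allows 3 counts, or 0.0685 CPM (counts scaled to library size), by counting error alone. The read length used to turn coverage into these estimated counts is not given in the sources used here, so the scale of both is approximate. Fcgr4 rested on 11 and 4 counts. The order of the middle ranks in retina was not resolved, because Ms4a6c, Fcgr2b, Cd53, Fcgr1 and Fcgr4 overlapped from each to the next.

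**Figure D1:**
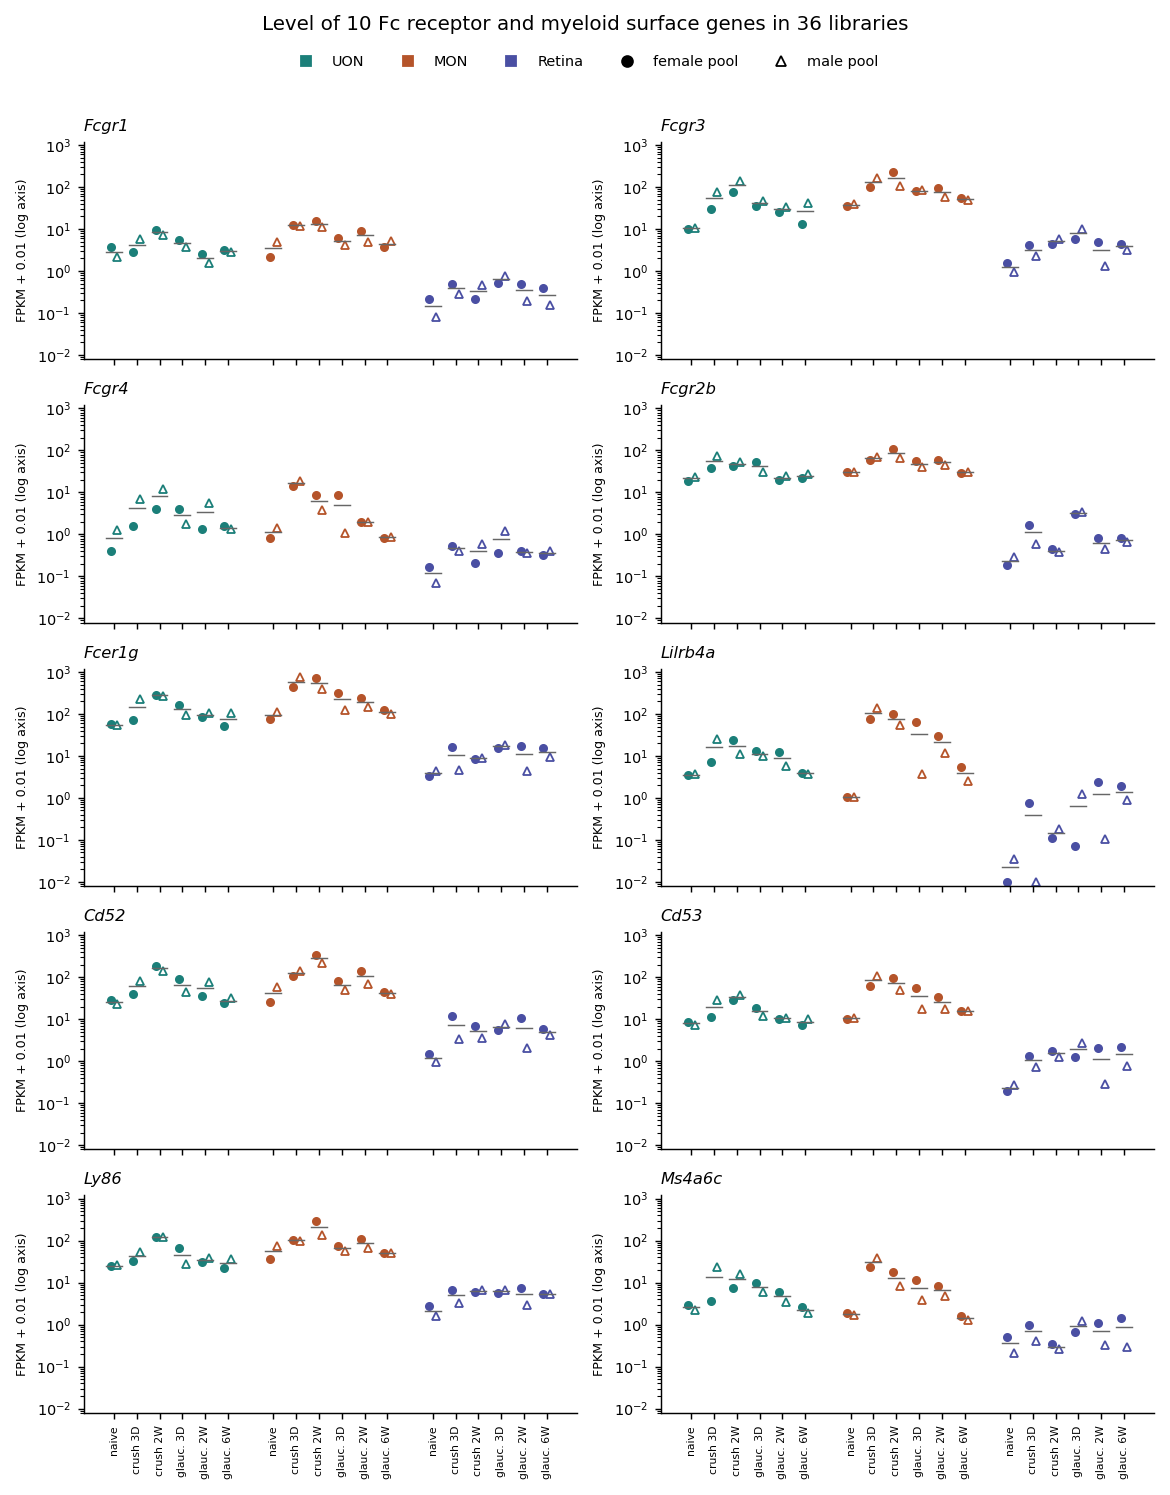
Level of each of the 10 genes in the 36 libraries, on a log axis of FPKM plus 0.01, with filled circles for female pools, open triangles for male pools and a short bar at the mean of the 2 pools. The mean of the retina pools lies below both nerve regions for all 10 genes in all 6 conditions, and each gene has its highest mean in MON after crush, as with Fcer1g at 435 and 744 FPKM at 3D.

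The naïve libraries are also the baseline of the contrasts that chose members. The tests between naïve tissues, here and in the next paragraph, are therefore not independent of that choice. Against retina, 9 of 10 members were higher in naïve UON by edgeR (18.2% of 23685 genes were called higher), and 9 of 10 in naïve MON (16.7%). DESeq2 called all 10 in both (21% and 19%). The largest differences with UON were those of Lilrb4a (log2 fold change 7.06 ± 1.18 SE, edgeR adjusted p = 0.0033), Fcgr2b (5.92 ± 0.29, adjusted p = 2.6e-05) and Cd53 (5.58 ± 0.38, adjusted p = 6.1e-05). With MON they were those of Fcgr2b (6.49 ± 0.30, adjusted p = 2.8e-05) and Cd53 (6.03 ± 0.39, adjusted p = 6e-05). Fcgr4 was the member that missed the threshold in both, at 2.90 ± 1.14 (adjusted p = 0.092) and 3.47 ± 1.13 (adjusted p = 0.057), although its pools did not overlap. All 10 members lay above retina in both pools of UON (35.6% of all genes) and of MON (34.6%). Here and below, numbers of members and genes whose pools did not overlap were taken on CPM after TMM scaling, and they can differ from the overlap of the FPKM printed. Shares of genes called by DESeq2 are of those to which it gave an adjusted p. The value of Lilrb4a rests on almost no retinal counts.

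Between the nerve regions in naïve mice, Fcgr3 was the member called by edgeR. An unadjusted p under 0.05 was found for 4 members, and for 5831 of all 23685 genes. Fcgr3 had 10.1 and 10.8 FPKM in UON and 35.3 and 39.4 in MON, and the regions did not overlap. In UON relative to MON its log2 fold change came to -1.90 ± 0.30 (edgeR adjusted p = 0.0097), and Fcgr3 was the 1 member of 10 called, where 4.8% of all genes were called lower in UON. DESeq2 called 2 members, Fcgr3 and Ly86 (8.29% of all genes called lower). Ly86, whose product MD-1 is the partner of the Toll-like protein RP105, had 25.01 and 25.72 FPKM in UON and 36.7 and 74.4 in MON (-1.16 ± 0.36, adjusted p = 0.096). Fcgr2b differed less, at -0.58 ± 0.23 (adjusted p = 0.18), and Lilrb4a ran the other way at 1.72 ± 0.88 (adjusted p = 0.29). In all, 6 members were lower in both UON pools than in both MON pools and 2 were higher (28% of all genes were lower and 25.8% higher in this way).

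The levels of the activating Fcgr3 and the inhibitory Fcgr2b were also set against each other. Fcgr3 over Fcgr2b in FPKM was 0.525 and 0.454 in naïve UON and 1.14 and 1.27 in naïve MON. All 12 MON libraries lay at 1.14 or above, while UON ran from 0.454 to 2.66 with a median of 1.21. After crush 2W the UON ratio was 1.85 and 2.66, above both naïve UON pools. In retina it ran from 1.99 to 16.1, with Fcgr2b at no more than 3.34 FPKM. Over the 12 retina libraries, the retained-intron transcripts Fcgr2b-205 and Fcgr3-203 took 20.8% and 14.8% of the counts of their genes. At crush 2W, where the retinal ratio was highest, Fcgr2b-205 took 69.9 and 65.9% in the female and male pools. In the naïve male retina pool Fcgr3-203 took 100%. The main transcripts of both genes share 94 stretches of 75 bases, 6.77% of the windows of Fcgr2b and 7.38% of those of Fcgr3. Sequence within such a stretch cannot be assigned to one gene. The paired reads were longer than 75 bases, and how many of them lay wholly within shared sequence was not measured.

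**Figure D2:**
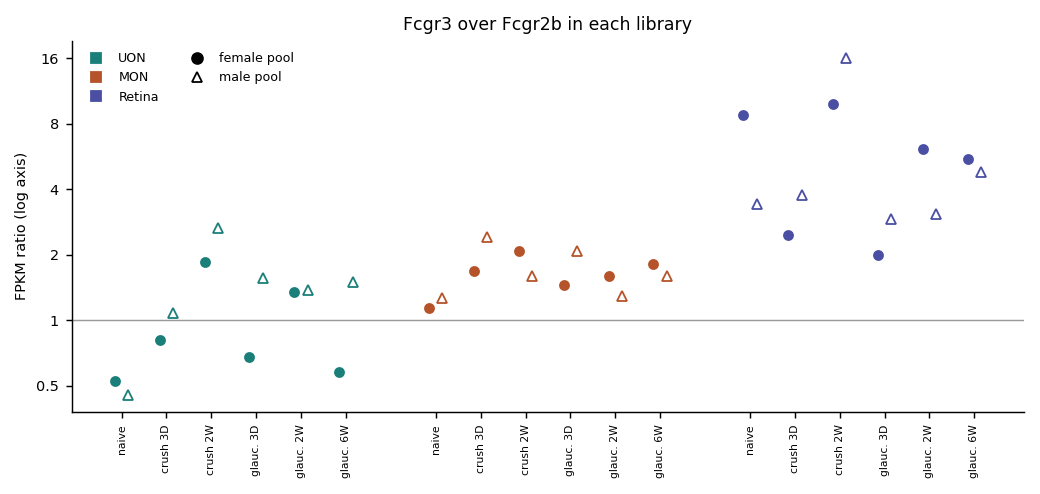
Ratio of the FPKM of Fcgr3 to that of Fcgr2b in each library on a log axis, by tissue and condition, with the line at 1 marking equal levels. The naïve UON pools lie at 0.525 and 0.454, and the 12 MON libraries lie between 1.14 and 2.42.

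After crush, every member was higher in MON than in naïve MON, in both pools and at both times (28.5% of all genes were higher in both pools at 3D and 26.4% at 2W). The rule for the members used these contrasts, so nothing is read from that count. Among the activating receptors, Fcgr3 had 101 and 168 FPKM in MON at crush 3D and 227 and 109 at 2W, compared with 35.3 and 39.4 in naïve MON. Fcgr4 had 14.01 and 18.97 FPKM at 3D and 8.70 and 3.75 at 2W, compared with 0.832 and 1.40, so its level was highest at the early time. Fcgr1, the high-affinity receptor for IgG, stood at 12.7 and 12.2 FPKM and then 15.8 and 11.04. The inhibitory Fcgr2b reached 59.7 and 69.4 FPKM at 3D and 109 and 67.9 at 2W, the smallest log2 fold change of the 4 receptors at both times (1.10 ± 0.30 and 1.40 ± 0.31).

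Fcer1g, without which the activating receptors are not held at the surface, had 435 and 744 FPKM in MON at crush 3D and 728 and 387 at 2W. Its level was 1.35 to 3.74 times the summed level of Fcgr1, Fcgr3 and Fcgr4 across MON libraries, 1.65 to 3.97 times across UON and 1.29 to 4.11 times across retina. The chain transcript thus exceeded the sum of its 3 partners in all 36 libraries. It also serves receptors other than those for IgG.

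The inhibitory receptor gene Lilrb4a had the largest log2 fold change of the set in MON, 6.61 ± 0.53 at crush 3D and 6.12 ± 0.52 at 2W. It went from 1.04 and 1.05 FPKM in naïve MON to 74.6 and 140 at 3D and 99.2 and 52.8 at 2W. In UON it was 7.21 and 24.9 FPKM at 3D and 23.7 and 11.2 at 2W, beside 3.41 and 3.65 in naïve UON. All 75-base windows of its main transcript also occur in Lilr4b or in the read-through gene Gm49339, so its count is uncertain. Summing the 3 genes changed the number of members called in none of the 29 comparisons.

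Cd52 encodes a short anchored glycoprotein of leukocytes, Cd53 a tetraspanin, Ly86 the protein MD-1 and Ms4a6c a membrane-spanning protein of monocytes and macrophages. At crush 3D in MON they had 108 and 139, 62.8 and 105, 102 and 100, and 23.2 and 37.6 FPKM in the female and male pools, in that order. At crush 2W Cd52 and Ly86 were higher still, with 346 and 216 and with 291 and 137 FPKM. Ms4a6c was lower at 2W, with 17.9 and 8.12 FPKM, than at 3D, without overlap. The edgeR fit called 5 members at each time in MON, beside 3.61% of all genes called higher at 3D and 2.13% at 2W, and DESeq2 called 9 and 10 (7.56% and 5.92%). These contrasts chose members, and nothing is read from the numbers. Without the naïve female MON library the number by edgeR was 0 at both times, and without the naïve male library it was 1, which leaves a single naïve library assumed to vary like the others.

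In UON the levels after crush were spread more widely between pools. At 3D all 10 members were higher in the male than in the female pool, with a median factor of 2.56, and 9 were higher in both than in naïve UON (18.4% of all genes). Fcgr3 stood at 30.8 and 78.6 FPKM, Fcer1g at 71.2 and 222 and Cd52 at 39.6 and 82.6. The summed level of 11 monocyte and infiltrating macrophage markers was 59.1 FPKM in that female pool and 477 in that male pool, and the part of this in the members' levels was not tested. At crush 2W the pools lay closer, and all 10 members were higher than in naïve UON in both (19.7% of all genes). Fcgr3 had 77.6 and 143 FPKM there, Cd52 184 and 144, and Ly86 124 and 119. DESeq2 called 2 members at 3D and 7 at 2W (0.832% and 1.14% of all genes called higher), where edgeR called 0 (0% and 0.0281% of all genes in either direction), and nothing is read from these counts.

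In retina after crush no member exceeded 16.6 FPKM. Cd52 stood at 11.6 and 3.31 FPKM at 3D and 6.72 and 3.65 at 2W, compared with 1.45 and 0.974 in naïve retina. Cd53 had 1.34 and 0.730 FPKM at 3D and 1.77 and 1.28 at 2W. In retina, 7 members at 3D and 9 at 2W were higher in both pools than in both naïve pools (19.8% and 20.7% of all genes). The edgeR fit called 0 (0.0221% and 0.313% of all genes) and DESeq2 1 and 4 (0.413% and 0.542%), and since these contrasts chose members nothing is read from the numbers. The exception to the higher pools at 2W was Ms4a6c, with 0.330 and 0.250 FPKM beside 0.50 and 0.196.

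**Figure D3:**
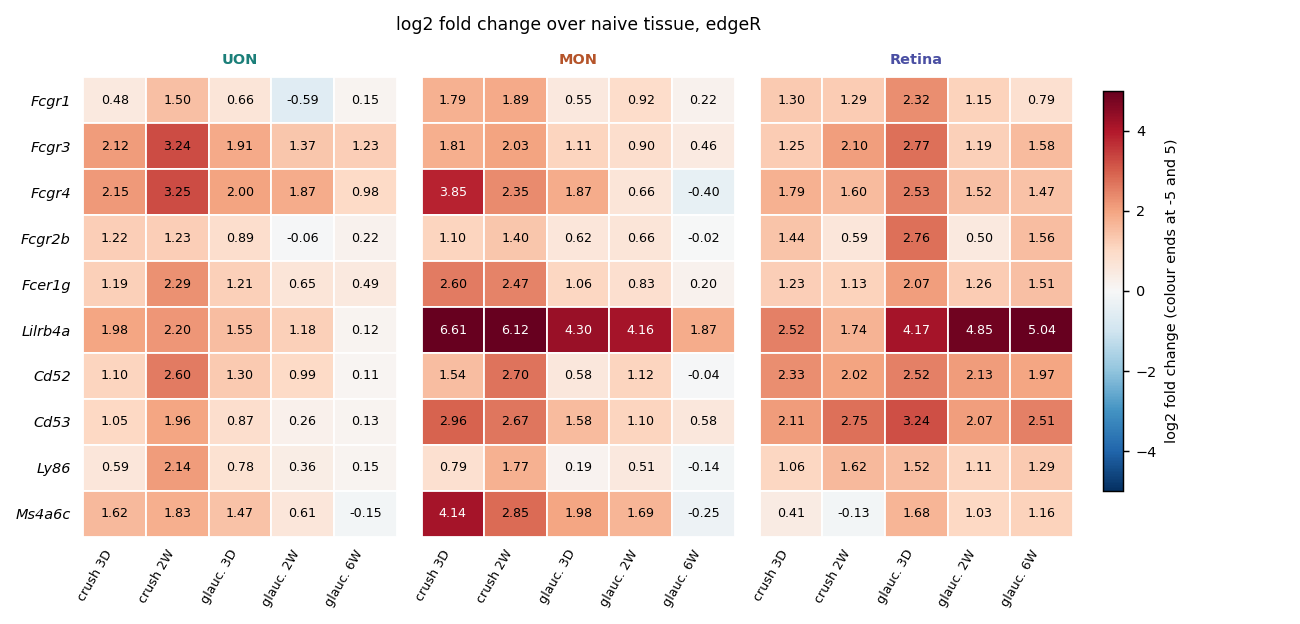
log2 fold change over naïve tissue from the edgeR fits, for each of the 10 genes (vertical) and each tissue and condition (horizontal), with red for higher than naïve. Lilrb4a in MON after crush holds the largest values, 6.61 and 6.12, and the values of Lilrb4a in retina rest on naïve pools of 0 and 5 counts. In the glaucoma 6W column of MON the values run from -0.40 to 1.87.

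At glaucoma 3D the members were higher in retina without overlap for 10 of 10 (18.7% of all genes), in UON for 9 (17.1%) and in MON for 6 (17.5%). In retina Fcgr2b went from 0.180 and 0.276 to 3.00 and 3.34 FPKM, and Fcer1g from 3.25 and 4.42 to 15.3 and 18.2. The MON pools of this group disagreed, since Lilrb4a had 63.5 FPKM in the female and 3.71 in the male pool, Fcgr4 had 8.73 and 1.07, and Fcer1g had 321 and 121. The same 2 libraries differed in the monocyte and infiltrating macrophage markers, with summed levels of 260 and 66.9 FPKM, and in the neutrophil markers, with 9.97 and 0.533. Their part in the members' levels was not tested. DESeq2 called 5 members in retina, 3 in UON and 4 in MON (0.518%, 0.49% and 1.78% of all genes), where edgeR called 0 (0.00429% of all genes in retina, 0% in UON and MON). Nothing is read from these numbers, because the contrast chose members.

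The later glaucoma times were not named in the rule for the members, although their naïve libraries are the same as in the contrasts above. In MON at 2W, Lilrb4a had 30.1 and 11.7 FPKM, Ms4a6c 8.27 and 4.79 and Fcgr3 96.8 and 57.6. All 10 log2 fold changes over naïve MON were positive, with a median of 0.91 beside 0.000874 over all genes, and 8 members did not overlap with naïve (20.2% of all genes). The edgeR test called 0 of 10 members, as it called 0% of all genes, with 6 at an unadjusted p under 0.05 (2017 of all 22960 genes). The largest change was that of Lilrb4a, at 4.16 ± 0.93 (edgeR adjusted p = 0.29), followed by Ms4a6c at 1.69 ± 0.48 (adjusted p = 0.39). DESeq2 called these 2 members, beside 1.86% of all genes called higher.

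By 6W the levels in MON lay near those of naïve MON for most members. Fcgr2b had 29.9 and 30.4 FPKM, beside 30.9 and 31.1 in naïve MON, and Ms4a6c had 1.60 and 1.27, beside 1.83 and 1.73. Lilrb4a was still at 5.29 and 2.48 FPKM, above both naïve pools. The median log2 fold change over naïve was 0.09, with 0 of 10 called by edgeR and 0 called by DESeq2 (0% and 0.247% of all genes). By edgeR 0 members had an unadjusted p under 0.05 (1127 of all 22960 genes), and 3 members lay above naïve in both pools (19% of all genes). From 2W to 6W all 10 members had a negative log2 fold change in MON, with a median of -0.69 beside -0.02 over all genes. Of these, 9 were lower in both 6W pools than in both 2W pools (22.4% of all genes). The edgeR test called 0 of 10 here (0% of all genes), and 4 had an unadjusted p under 0.05 (1119 of all 22960 genes). DESeq2 called 1, Ms4a6c (-1.94 ± 0.50), beside 0.349% of all genes called lower.

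In UON the glaucoma 2W and 6W groups gave smaller and mixed values. Fcgr3 had 26.2 and 34.3 FPKM at 2W and 12.9 and 41.4 at 6W, above both naïve UON pools each time (log2 fold change 1.37 ± 0.40 and 1.23 ± 0.41). Fcgr1 had 2.60 and 1.57 FPKM at 2W, beside 3.65 and 2.13 in naïve UON. The median over the members was 0.63 at 2W and 0.15 at 6W, and 6 and 3 members lay above naïve in both pools (16.9% and 14.7% of all genes). By edgeR 0 of 10 were called at either time, with 2 and 1 at an unadjusted p under 0.05 (801 and 451 of all 22438 genes). DESeq2 called 0 (0% of all genes by edgeR, 0.294% and 0.193% by DESeq2). Between the 2 times edgeR and DESeq2 also called 0 (0% and 0.982% of all genes), and 1 member was higher and 2 were lower at 6W without overlap (18.2% and 18.9%). By edgeR 1 member, Lilrb4a, had an unadjusted p under 0.05 (1220 of all 22438 genes), with 12.3 and 5.88 FPKM at 2W and 3.82 and 3.78 at 6W.

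In retina at glaucoma 6W Fcer1g had 15.3 and 9.26 FPKM, Cd52 5.97 and 4.09 and Cd53 2.15 and 0.773, all above both naïve retina pools. All 10 log2 fold changes over naïve retina were positive, with a median of 1.54 beside 0.01 over all genes, and 8 members did not overlap (21.9% of all genes). The edgeR test called 0 of 10 (0.00858% of all genes), with 7 at an unadjusted p under 0.05 (1321 of all 23301 genes). DESeq2 called 1, Lilrb4a (0.319%). At 2W the median was 1.23 and 4 members did not overlap on the CPM scale (20.6%), but the female pool was higher than the male pool for 10 of 10 members, by a median factor of 3.60, with Fcer1g at 17.5 and 4.37 FPKM and Lilrb4a at 2.32 and 0.0941. There 3 members had an unadjusted p under 0.05 by edgeR at 2W (1465 of all 23301 genes). At that time edgeR called 0 (0% of all genes) and DESeq2 called 1, again Lilrb4a (0.339%). From 2W to 6W in retina, edgeR and DESeq2 called 0 (0.00858% and 0.314%), with 0 at an unadjusted p under 0.05 by edgeR (927 of all 23301 genes). On the CPM scale 1 member was higher in both 6W pools (15.8%). It was Fcgr2b, whose FPKM overlapped, with 0.814 and 0.670 at 6W and 0.824 and 0.437 at 2W.

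The rule for the members did not name the difference between MON and UON in the injured nerve, and both regions came from the same mice. At crush 3D, crush 2W and glaucoma 3D, however, the libraries are those whose values chose members, so these comparisons are not independent of that choice. At these 3 times the p-values of members and the numbers called, in each fit, are given as a description. At crush 3D all 10 members had a positive log2 fold change of MON over UON, with a median of 1.45 beside 0.01 over all genes. In total 9 were higher in both MON pools than in both UON pools, compared with 20.7% of all genes. Cd53 had 62.8 and 105 FPKM in MON and 11.02 and 28.3 in UON (log2 fold change 2.09 ± 0.51, edgeR adjusted p = 0.023). Fcer1g had 435 and 744 FPKM in MON and 71.2 and 222 in UON (2.01 ± 0.55, adjusted p = 0.041). These were the 2 of 10 called, beside 1.91% of all genes called higher in MON. Lilrb4a (2.70 ± 0.82, adjusted p = 0.068) and Fcgr1 (1.46 ± 0.46, adjusted p = 0.079) came next, and Fcgr2b had the smallest difference (0.25 ± 0.33, adjusted p = 0.78).

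With the pool of mice as a block in that fit, 6 of 10 members were called at crush 3D, namely Fcer1g, Cd53, Lilrb4a, Fcgr1, Ly86 and Ms4a6c (2.35% of all genes called higher). DESeq2 also called 6 (5.87%), with Fcgr3 in place of Ms4a6c. Leaving out 1 library moved the number from 2 to between 0 and 5. It was 0 without the male MON pool or without the female UON pool, and 5 without the male UON pool. The myeloid markers moved along with the members, since 5 of 12 general myeloid genes were called higher in MON at crush 3D, among them Cd68 (2.75 ± 0.60), and their part in the members' difference was not tested. Of 6 astrocyte genes, Gja1 and Slc1a3 were called lower (-3.15 ± 0.61 and -2.59 ± 0.49). In naïve mice both were already lower in MON, with UON over MON at 2.16 ± 0.29 and 2.33 ± 0.33 (edgeR adjusted p = 0.0057 and 0.0066).

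At glaucoma 2W Fcgr1 and Fcgr2b were the 2 members called between the regions (2.29% of all genes called higher). Fcgr1 had 9.26 and 4.86 FPKM in MON and 2.60 and 1.57 in UON (1.78 ± 0.47, edgeR adjusted p = 0.043). Fcgr2b had 60.9 and 44.5 FPKM in MON and 19.4 and 24.7 in UON (1.27 ± 0.33, adjusted p = 0.04). The regions did not overlap for either gene or for 5 others (21.4% of all genes). With the pool of mice as a block the same 2 genes were called (2.61%), but neither call remained when any 1 of the 4 libraries was left out. DESeq2 called both, and Fcgr3 and Ly86 besides (5.78% of all genes called higher).

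In the other groups edgeR called 0 of 10 members between MON and UON. The count at an unadjusted p under 0.05 was 1 at crush 2W, 2 at glaucoma 3D and 0 at glaucoma 6W. For all 27498 genes it was 5143, 2875 and 4104. DESeq2 called 1, 0 and 0 members. DESeq2 called 7.94% of its genes higher at crush 2W, and 5.92% and 11% in either direction at glaucoma 3D and 6W. The share of all genes called by edgeR in either direction was 3.65%, 1.03% and 3.91%. Without overlap, 7 members were higher in MON at crush 2W (21.9% of all genes), 2 at glaucoma 3D (18.4%) and 6 at glaucoma 6W (23.7%), where 2 were lower (24.7%). At crush 2W the 1 member called by DESeq2, and by edgeR with the pool of mice as a block (2.91%), was Lilrb4a (2.16 ± 0.81 in the fit without that block, adjusted p = 0.15). Fcgr3 had 0.63 ± 0.48, 1.04 ± 0.48 and 0.99 ± 0.48 in these groups, without passing the test. Fcgr4 had a negative value in 3 of the 5 injured groups, -0.34 ± 0.91 at crush 2W, -0.65 ± 0.91 at glaucoma 2W and -0.79 ± 0.91 at glaucoma 6W.

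**Figure D4:**
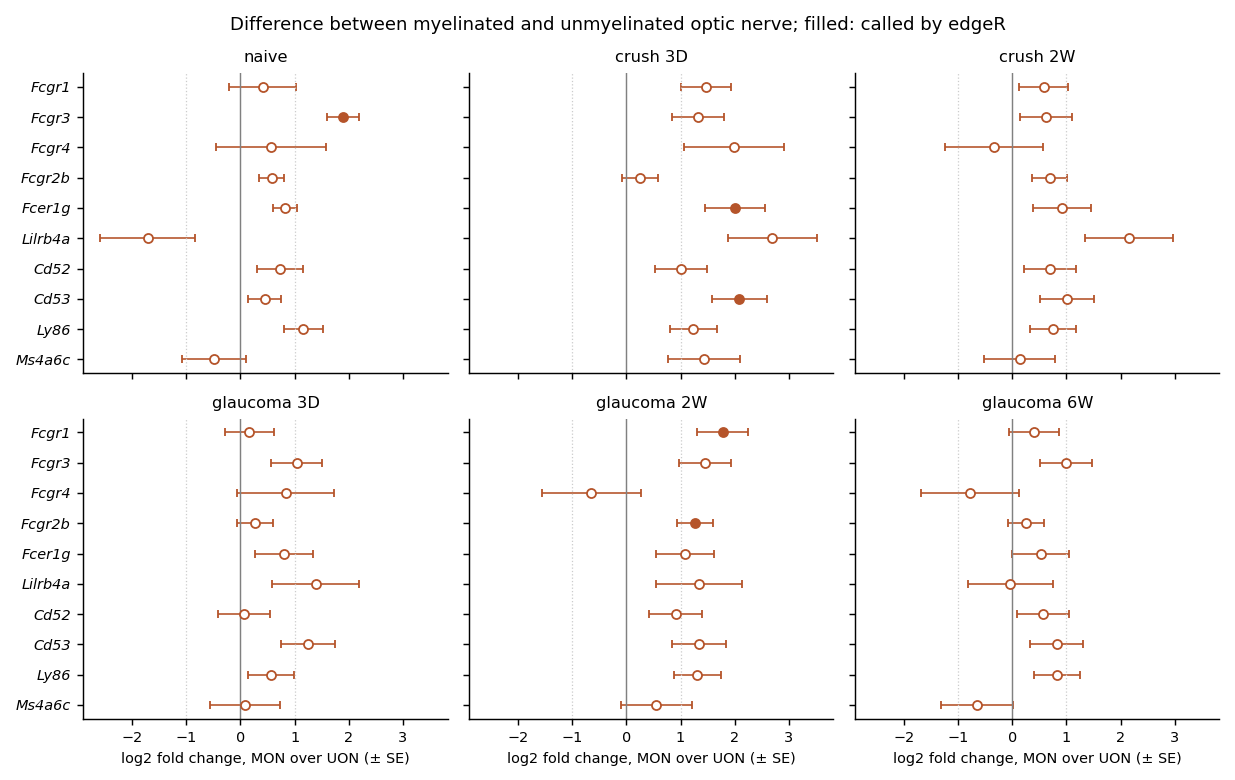
log2 fold change of MON over UON with its standard error for each of the 10 genes, in naïve mice (fit of 6 naïve libraries) and in the 5 injured groups (fit of 24 nerve libraries). Filled points were called by edgeR, and these are Fcgr3 in naïve mice, Fcer1g and Cd53 at crush 3D, and Fcgr1 and Fcgr2b at glaucoma 2W.

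To set the members beside myeloid genes in general, the mean log2 CPM of 12 genes shared by microglia and macrophages was subtracted in each library. How many of all genes have pools that separate on this scale was not computed. Nothing is read from a lack of overlap here or in the next paragraph. Crush 3D, crush 2W and glaucoma 3D are also the conditions whose contrasts chose members. The mean of those 12 genes itself went from 6.31 in naïve MON to 8.11 at crush 3D and 8.57 at crush 2W, and from 1.69 in naïve retina to 3.04 at glaucoma 3D. Relative to it, Lilrb4a was higher than in naïve MON by 4.61 at crush 3D, 3.66 at crush 2W, 2.93 at glaucoma 3D, 2.78 at glaucoma 2W and 1.14 at glaucoma 6W, without overlap each time. Ms4a6c was higher by 2.15 and Fcgr4 by 1.91 at crush 3D in MON. Fcgr2b and Ly86 ran the other way, since both lay below naïve MON in all 5 injured groups without overlap, Fcgr2b by between -0.97 and -0.27 and Ly86 by between -1.04 and -0.59.

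In UON Fcgr3 was higher on this scale than in naïve UON in all 5 injured groups without overlap, by 0.78 to 1.77. The mean of Fcgr4 was also higher in all 5, by 0.75 to 1.68, but its pools overlapped those of naïve UON each time. In MON Fcgr3 moved between -0.52 and 0.22. In retina Cd52 was higher in all 5 groups without overlap, by 0.94 to 1.47. Fcer1g moved between -0.50 and 0.79 over the 15 injured groups. These differences describe transcripts relative to other myeloid transcripts and carry no test.

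**Figure D5:**
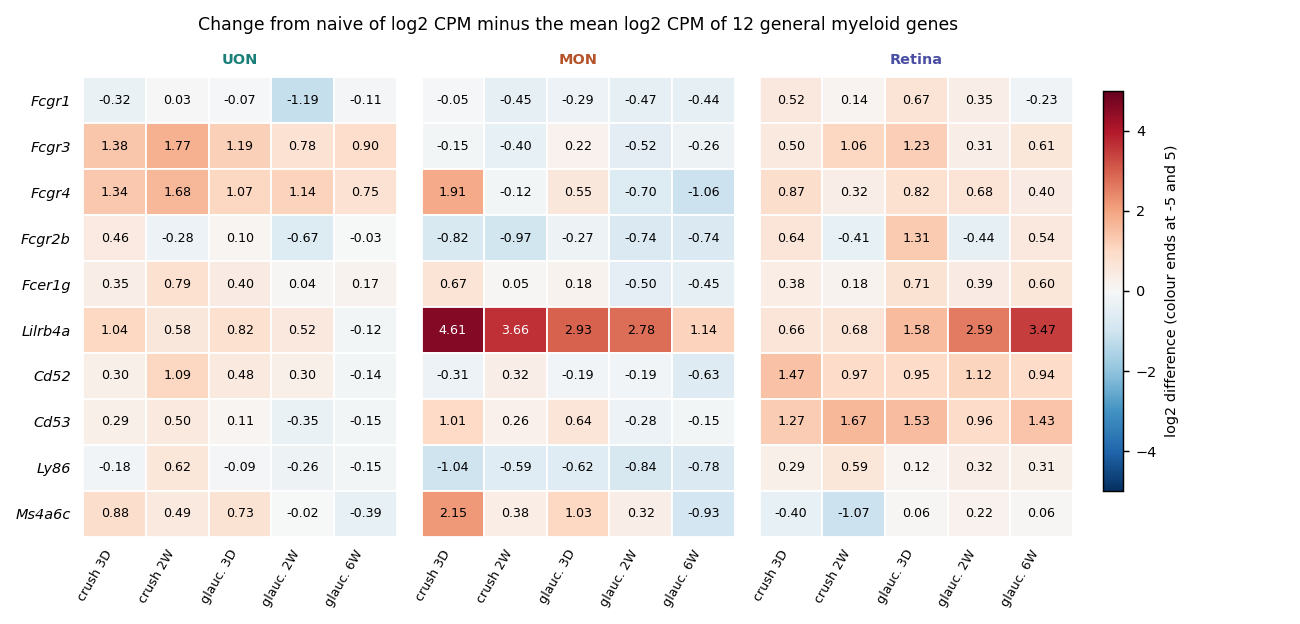
Change from naïve tissue in the log2 CPM of each gene after subtracting the mean log2 CPM of 12 general myeloid genes in the same library, averaged over 2 pools. Lilrb4a in MON is the reddest row, Fcgr2b and Ly86 are blue across MON, and Fcgr3 and Fcgr4 are red across UON.

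The markers of other cells give the setting of these values. Homeostatic microglia genes, 10 in the list, summed to 376 to 1200 FPKM in MON, 217 to 540 in UON and 22.4 to 44.9 in retina. The monocyte and infiltrating macrophage list reached 261 and 733 FPKM in MON at crush 3D, beside 23.1 and 35.4 in naïve MON, but 3 of its 11 genes are also made by astrocytes and fibroblasts. Neutrophil genes stayed at or under 28.7 FPKM in sum, and Ly6g was at 0 in all 12 MON libraries. T and NK cell genes reached 13.7 FPKM, and B cell genes reached 10.5 in retina and 3.46 in the nerve. The mast cell list, which holds the FcεRI genes Fcer1a and Ms4a2, stayed at or under 0.562 FPKM in all 36 libraries.

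Antibodies are the ligands of Fc receptors. Their 9 constant region genes summed to 5.05 to 28.1 FPKM in MON, 8.04 to 18.6 in UON and 1.71 to 4.08 in retina, and 7 of them stayed under 1 FPKM in all 12 libraries of MON and of retina, as did 5 in UON. Of the 12 other Fc receptors and Fc-binding proteins, Fcgrt, the neonatal Fc receptor that carries IgG across cells, was higher in naïve UON than in MON (1.76 ± 0.20, edgeR adjusted p = 0.0032), against the direction of Fcgr3. It was lower in MON than in UON at crush 3D (-2.14 ± 0.47, adjusted p = 0.013) and glaucoma 6W (-1.98 ± 0.47, adjusted p = 0.023) too. Others of this list were called the other way, Fcrls at crush 3D (2.00 ± 0.56, adjusted p = 0.046) and Fcrlb at crush 2W (8.66 ± 2.19, adjusted p = 0.040). In this list 8 genes stayed under 1 FPKM in all 12 UON libraries and 6 in all 12 MON libraries. The level of Fcrlb is not given here, and its large value may rest on few counts. Of all genes, edgeR called 1.91% higher in MON at crush 3D. In either direction it called 3.65% at crush 2W and 3.91% at glaucoma 6W.

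The genes downstream of the receptors were listed apart from the members. The 15 genes of ITAM signaling had a median log2 fold change of -0.50 for naïve UON over MON, beside -0.06 over all genes. At crush 3D 8 of them were called higher in MON than in UON (1.91% of all genes), with a median of 1.77. Vav1 (2.48 ± 0.46, edgeR adjusted p = 0.0054) and Syk (2.04 ± 0.50, adjusted p = 0.023), the exchange factor and the kinase of this pathway, were among them. At crush 2W 6 of the 15 were called higher in MON (3.65% of all genes in either direction), Syk again (2.50 ± 0.51, adjusted p = 0.014). Of 16 inhibitory receptors and phosphatases, 6 were called higher in MON at crush 3D and 5 at crush 2W, beside the same shares of all genes, and at 2W these included Inpp5d (1.87 ± 0.37, adjusted p = 0.013), which encodes SHIP1.

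Families of the other members were also compared between the regions. Of 8 further leukocyte tetraspanins, Cd151 was called lower in MON at crush 3D (-1.97 ± 0.44, edgeR adjusted p = 0.016) and at crush 2W (-1.73 ± 0.44, adjusted p = 0.0365). Cd82 was called higher in MON at crush 2W (1.35 ± 0.35, adjusted p = 0.0421), at glaucoma 2W (1.59 ± 0.35, adjusted p = 0.0164) and at glaucoma 6W (1.57 ± 0.35, adjusted p = 0.0182). Both genes already differed in the same direction in naïve mice. There UON over MON was 1.80 ± 0.27 for Cd151 (edgeR adjusted p = 0.0081) and -2.04 ± 0.21 for Cd82 (adjusted p = 0.0024). The 8 genes together reached 2273 to 3622 FPKM in UON and 2401 to 3871 in MON. Among 5 relatives and partners of the LY86 product, Tlr2 was called higher in MON at crush 3D (1.61 ± 0.37, adjusted p = 0.018). The 8 tested Ms4a genes had a median of 0.74 at crush 3D. Among myeloid transcription factors, Irf8 was called higher in MON at crush 2W (1.57 ± 0.41, adjusted p = 0.04).

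The members varied together from library to library. Over the 12 libraries of a tissue, the correlation of log2 CPM between 2 members had a median of 0.784 in UON, 0.875 in MON and 0.736 in retina over 45 pairs, and Cd53 with Fcer1g was the closest pair in the nerve (0.963 in UON and 0.984 in MON). Injury groups and library depth are shared by all points, so these values describe likeness and nothing more. Among the genes ranked, the one most like the mean of the members over 36 libraries, each centred within its tissue, was Tyrobp, the other ITAM adaptor of myeloid cells (r = 0.943). It was followed by Cd300c2 (0.930), Cd300a (0.927), Fcrls (0.910), Cyba (0.900), Mpeg1 (0.898), Lyz2 (0.896), Ctla2b (0.896), Adgre1 (0.895) and Trem2 (0.889). Correlations were computed for 20706 genes. The ranking left out the members, symbols of predicted or unnamed genes, and every symbol that starts with C and a digit, such as C1qa.

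Differences between female and male pools had no common direction across groups. All 10 members were higher in the female pool in MON at crush 2W, in retina at crush 3D and in retina at glaucoma 2W, and all 10 in the male pool in UON at crush 3D and in retina at glaucoma 3D. Over the 12 libraries of a tissue, edgeR called 0 of 10 members between the sexes (0.0251% of all genes in UON, 0.0404% in MON and 0.0324% in retina), as did DESeq2 (0.185%, 0.143% and 0.101%). The count at an unadjusted p under 0.05 by edgeR was 1 in UON, 0 in MON and 2 in retina. For all genes it was 787 of 23927, 556 of 24738 and 786 of 24693. Among pairs of pools in which neither was at 0, the largest difference was that of Lilrb4a in retina at glaucoma 2W, by a factor of 24.6.

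The counts of a gene were also split among its transcripts. Fcgr2b-202 took 63.2 to 97.9% of the Fcgr2b counts in the 24 nerve libraries, and Fcgr2b-201 took at most 27.1%. In naïve retina the assignment went to Fcgr2b-201, with 97.0 and 87.1%, but on 33 and 31 counts in all. Fcgr3-201 took 47.3 to 97.9% of the Fcgr3 counts in the nerve, with the lowest share in the female pool of UON at glaucoma 6W, and Fcgr3-204 took at most 49.8%.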

How the data were processed

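RNA of UON, MON and retina was sequenced as paired reads in 36 libraries of 2 pooled mice each. According to the study's methods and the submitters' processing notes, the authors checked reads with FastQC, aligned them to GRCm38 with HISAT2 2.2.1 and quantified genes and transcripts with StringTie 1.3.0. The deposited gene and transcript tables hold estimated counts, which had already been rounded to whole numbers. The per-library files deposited by the authors hold FPKM, which is used for levels, and TPM, which was tabulated beside it and is not printed. In some of these files tiny negative FPKM and TPM values occur and were set to 0.

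Estimated counts were tested with edgeR 4.0.16 in R 4.3.3 (TMM scaling, filterByExpr at its count of 10 and total of 15, quasi-likelihood F test, Benjamini-Hochberg adjustment over all genes tested). Calls needed an absolute log2 change beyond 1 together with adjusted p below 0.05. Tissue or condition and sex were in each model. Naïve tissues were fitted on 6 libraries, the glaucoma times on 8 per tissue, the crush times on 6 per tissue, MON against UON on 24 and the sexes on 12 per tissue. Library totals of 16.2 to 78.1 M set the precision, and floors for a count of 0 cover counting error only. On counts of 22431 genes simulated for naïve UON against MON, this procedure recovered 47 of 100 genes changed by 3 on the log2 scale and 9 of 100 changed by 2. The changed genes excluded those with low counts. The simulated spread was on average smaller than that fitted to the naïve libraries, whose common biological coefficient of variation was 0.507. These shares may therefore be too high for the data, above all for members with few counts.

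UON and MON libraries of the same condition and sex came from the same mice, so the pool of mice was added as a block in 1 alternative. Deviations from the group means correlated weakly within pools, between -0.0338 and 0.0996 over 27498 genes. Other alternatives were DESeq2 1.42.0, another scaling, no filter, no sex term, counts divided by 4, all 36 libraries in 1 fit and leaving out 1 library. The members, the pathway lists and the cell type lists were chosen with earlier results of these data known. The rule for named genes takes all 10 members in each comparison, of which the text prints examples picked after their values were seen and gives the others by counts and medians. It takes from each other list at most 3 called genes with the largest change, and the 10 genes most like the members by correlation among those ranked. Whether counting used strand, and the read length assumed for the estimated counts, are not given in the sources used here.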

Additional observations from a re-analysis of the deposited data

Results flagged for a closer look

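For 4 members, the female and male pools of an injured group both lay on one side of the naïve pool of the same sex in 1 tissue and both on the other side in another tissue. The test of each difference is an edgeR interaction term added after the data were seen, and the values are mean differences in log2 CPM between injured and naïve pools of the same sex. Fcgr1 at glaucoma 2W was at -0.63 in UON, 0.92 in MON and 1.08 in retina. The interaction was -1.52 ± 0.67 for UON against MON (edgeR adjusted p = 1, unadjusted 0.0374) and -1.73 ± 0.87 for UON against retina (adjusted p = 1, unadjusted 0.0658). Fcgr2b at glaucoma 2W was at -0.10 in UON and 0.65 in MON, with an interaction of -0.77 ± 0.44 (edgeR adjusted p = 1). For Fcgr4 at glaucoma 6W the value in UON was 1.04, that in MON -0.28 and that in retina 1.35. Its interactions were 1.51 ± 1.19 for UON against MON (edgeR adjusted p = 1) and -1.80 ± 1.17 for MON against retina (adjusted p = 0.684). Ms4a6c at glaucoma 6W was at -0.10 in UON and 1.01 in retina, with an interaction of -1.23 ± 1.06 (edgeR adjusted p = 1). None of these 6 differences passed the adjustment.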

How the results depend on the processing

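Calls rested on n = 2 pools and changed with the setting. The number of members called between naïve UON and MON was 1 and became 2 with DESeq2, without a filter or with counts divided by 4, 0 with all 36 libraries in 1 fit, and 1 to 2 when 1 library was left out. Between MON and UON at crush 3D it was 2 and became 6 with DESeq2, 6 without a filter, 4 with counts divided by 4, 1 with all 36 libraries, 6 with the pool of mice as replicate block and 0 to 5 with 1 library left out. At crush 2W it was 0 and became 1 with DESeq2, without a filter and with the pool of mice as replicate block, which changed no other count. At glaucoma 2W it was 2 and became 4 with DESeq2, 5 without a filter, 0 with all 36 libraries and 0 to 0 with 1 library left out. Against naïve tissue, where edgeR called 0, DESeq2 called 3 at UON glaucoma 3D, 4 at MON glaucoma 3D, 5 at Retina glaucoma 3D, 2 at MON glaucoma 2W, 1 at each of Retina glaucoma 2W and 6W, 2 and 7 at UON crush 3D and 2W, and 1 and 4 at Retina crush 3D and 2W. It called 1 at MON glaucoma 6W against 2W. Without a filter the count was 1 at MON glaucoma 2W, 1 at MON glaucoma 3D and 3 at UON crush 2W, and with all 36 libraries 1 at Retina glaucoma 3D and 3 at UON crush 2W. At MON glaucoma 3D, leaving out 1 library gave 0 to 1, the 1 being without the male pool. The 5 members of MON crush 3D became 9 with DESeq2 and without a filter and 0 to 8 with 1 library left out. The 5 of MON crush 2W became 10 with DESeq2 and without a filter, 9 without the sex term and 0 to 10 with 1 library left out. Both fell to 0 without the naïve female MON pool. Over all genes, DESeq2 called 3675 between naïve UON and MON where edgeR called 2281, and 2683 against 1432 between MON and UON at crush 3D, 2672 against 1003 at crush 2W, 1163 against 284 at glaucoma 3D, 2046 against 1033 at glaucoma 2W and 2252 against 1076 at glaucoma 6W. With 1 library left out, the log2 fold change of naïve UON over MON ran from -1.27 to 0.78 for Fcgr1 (positive at 0.78 without the male MON pool and 0.03 without the male UON pool), from -1.64 to 0.18 for Fcgr4 (positive without the female UON pool) and from -1.35 to 0.058 for Cd52 (positive without the male MON pool). That of MON over UON ran from -0.14 to 0.83 for Fcgr2b at crush 3D (negative without the female UON pool) and from -1.35 to 0.55 for Fcgr4 at glaucoma 2W (positive without the male UON pool). None of these had passed the test. The cause of these changes was not tested. Leaving out libraries was not run for retina after crush.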
